A study of Mus musculus with 8 samples.

Results

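The 40 genes described here mark endothelial cells or carry the signals of blood vessel growth, and were taken by name from the 27179 genes of a count table of whole primary tumours. They comprised 16 endothelial identity genes, 6 receptors, 9 ligands and secreted regulators, 4 transcription factors, 4 leukocyte-binding genes of venules and 1 lymphatic hyaluronan receptor. RNA sequencing was performed on 4 tumours of the 4T1.13-VC line (vector control) and 4 of the 4T1.13-miR-21-KD line, both derived from 4T1.13, a metastatic mouse mammary carcinoma line. Both lines carried the pEZX-AM03 lentiviral vector with the mCherry reporter and hygromycin B resistance. In miR-21-KD cells the H1 promoter of the vector drove an RNA that sequesters mature miR-21, whereas VC cells carried a scrambled sequence, and each line was a pool of clones. Cells (100000 per mouse) had been injected into the mammary fat pad of female BALB/c mice, which are immunocompetent and keep their own miR-21, and the labels give day 14 for recovery, while the methods give an earlier day. The paper reports that miR-21-KD tumours grew poorly in BALB/c mice and were taken when they began to regress, so the groups may also differ in growth stage. The comparison asks how the vessel-related transcripts of the tumour differed when miR-21 activity was suppressed in the carcinoma cells alone.

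Endothelial cells line blood vessels and hold together through junction proteins such as VE-cadherin. VEGF ligands act on the VEGF receptors of these cells to start sprouting, angiopoietins act on the receptor TIE2 to steady or loosen the vessel wall, and apelin from sprouting tips acts on its own receptor. Venules in addition display selectins and adhesion molecules that capture leukocytes from the blood.

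The tumours held 12134849 to 13592695 counted reads in the VC group and 12550898 to 12783800 in the miR-21-KD group, so that 3 counts, the limit that a count of 0 allows, equal 0.221 to 0.245 CPM (the scaled count used below, corrected for library size with TMM factors; these limits cover counting error only). Of 14382 genes tested with edgeR's quasi-likelihood test, 39.1% had an adjusted p under 0.05, with 19.6% higher after knockdown and 19.5% lower. The row of Mir21a, the miR-21 precursor gene, held 0 counts in each of the 8 tumours, and as the vector sequesters the mature form these counts do not test the knockdown. In whole tumours, fewer endothelial cells and less RNA per endothelial cell cannot be told apart. Nothing in the labels ties the tumours to separate cultures, so the p-values measure the spread between these 8 tumours.

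The sequence suppressed in the carcinoma cells and its matches in the members are shown first. Mature mmu-miR-21a-5p (RefSeq, GRCm38.p6, chr11:86584120-86584141, - strand) is printed with its seed, bases 2 to 8, in capitals:
mmu-miR-21a-5p: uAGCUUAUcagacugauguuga
The 7 bases that pair with the seed, ATAAGCT, occurred in the longest annotated 3′ UTR of 5 of the 40 members (12.5%) and of 1026 of 13225 tested genes (7.76%). The 5 sites lie in exonic 3′ UTR sequence of GENCODE vM21 (GRCm38, the assembly also called mm10) and are printed 5′ to 3′ on the strand of the gene with the match in capitals:
Cd34, chr1:194961116-194961140 (+ strand): tacaaagactATAAGCTtcctctcc
Flt1, chr5:147635883-147635907 (- strand): aagactaatgATAAGCTatgagaac
Tie1, chr4:118479403-118479427 (- strand): ctcagggagcATAAGCTactgagag
Vegfc, chr8:54186438-54186462 (+ strand): aaattgtattATAAGCTatgaagtt
Sele, chr1:164056776-164056800 (+ strand): aaatagaatgATAAGCTgaagacag
The Flt1, Tie1 and Vegfc sites are 3′ UTR in 1 of 2 protein-coding transcripts of the gene, and those of Flt1 and Tie1 lie well inside the gene rather than near its end. The counts are of whole genes and do not separate transcripts. A match is a description of these letters and not evidence of binding. Of the 5 genes, Sele was higher (log2 fold change 1.62) and Vegfc lower (-0.92) in miR-21-KD tumours, and Cd34 (0.54), Flt1 (0.16) and Tie1 (0.26) did not pass the test.

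Among the 39 members tested, 13 (33.3%) passed the test, a share near the 39.1% of all genes. Vwf, Ackr1, Sele, Tek, Pgf and Plvap were higher in miR-21-KD tumours and Angpt1, Esm1, Apln, Angpt2, Vegfc, Vegfb and Eng were lower. The 7 lower members comprised 6 of the 9 ligands and secreted regulators and 1 identity gene, whereas the 6 higher members were spread over identity genes, receptors, ligands and venular genes. Of the 9 ligands and secreted regulators, 77.8% were called in either direction. The 4 and 4 values did not overlap for 11 of the 39 tested members, a share below the 35.2% of all tested genes (5062 of 14382). These were the 7 lower members with Vwf, Plvap, Ackr1 and Mmrn2, the last of which did not pass the test. The median log2 fold change was -0.01 over the tested members and -0.01 over all tested genes. Prox1, the lymphatic master transcription factor, had 1 to 6 counts per tumour and was not tested. With the replicate number as a block, 10 members were higher and 8 lower, or 46.2% of those tested, where 45.1% of all genes were called (23.0% higher and 22.1% lower).

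**Figure D1:**
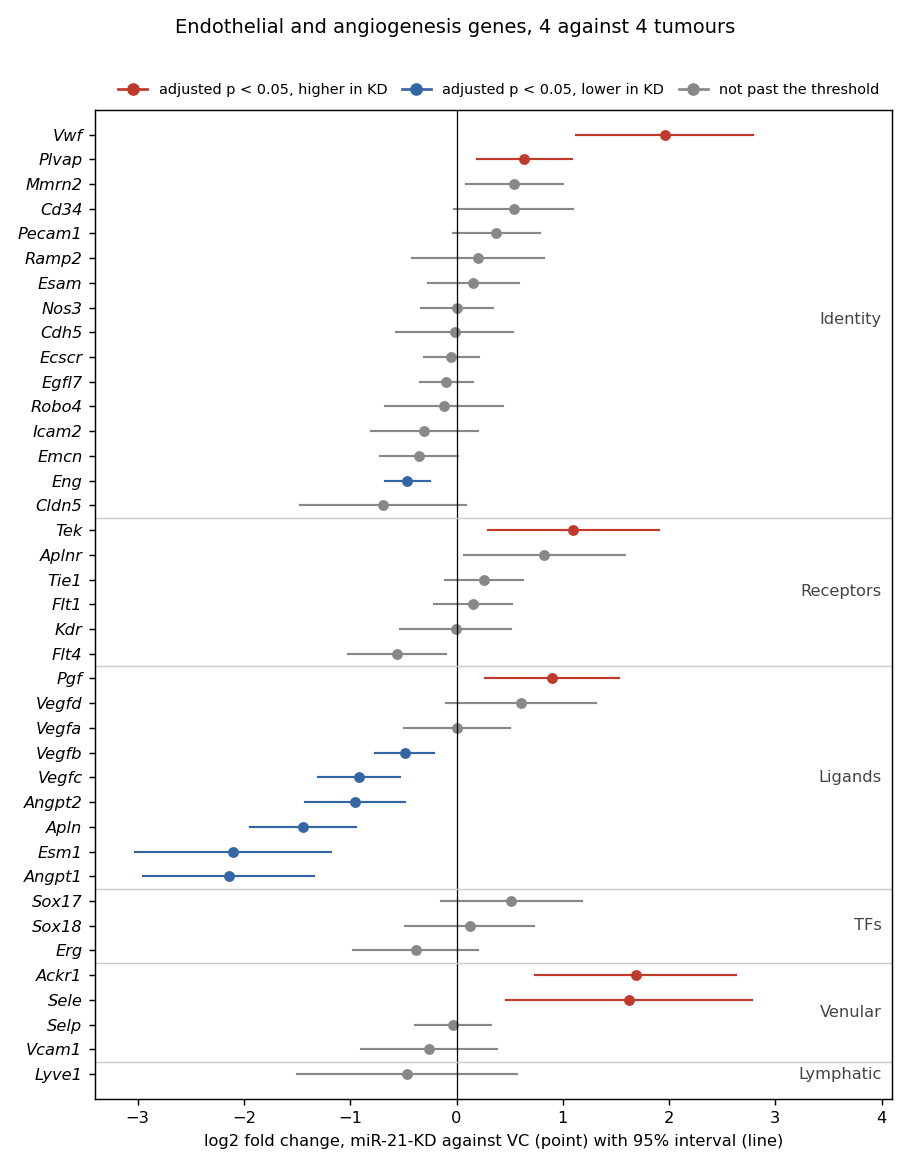
Log2 fold change of each tested member, miR-21-KD against VC tumours (x axis; point), with its 95% interval (line), grouped by role and coloured by the outcome of edgeR's test with 4 tumours per group. The 6 lower ligands lie left of 0 with intervals that do not reach it, while 13 of the 16 identity genes and 5 of the 6 receptors did not pass the test. Of all tested genes 39.1% passed it.

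The steepest falls were of secreted factors. Angpt1 (Entrez 11600, chr15:42424667-42676977 in GRCm38.p6), which encodes angiopoietin-1, the agonist of TIE2 that mural cells secrete, stood at 24.8, 77.9, 41.2 and 77.4 CPM in VC tumours 1 to 4 and 10.8, 15, 12.7 and 11.6 CPM in miR-21-KD tumours 1 to 4. All 4 miR-21-KD values lay below the lowest VC value, and VC 1 was the lowest of its group. Angpt1 was 4.41-fold lower in miR-21-KD tumours (log2 fold change -2.14 ± 0.35 (SE), adjusted p = 0.00641). Exons of an antisense gene, Gm17473, cover 737 bases of Angpt1, and the strand setting of the counting is not given in the sources used here. Angpt2 (Entrez 11601, chr8:18690263-18741562), the angiopoietin released by activated endothelium, had 82.4, 71.9, 50.8 and 90.0 CPM in VC tumours 1 to 4 and 46.6, 38.4, 39.8 and 27.2 CPM in miR-21-KD tumours 1 to 4. The groups did not overlap, and Angpt2 was 1.94-fold lower (log2 fold change -0.96 ± 0.21 (SE), adjusted p = 0.0115).

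Esm1 (Entrez 71690, chr13:113209659-113218104) encodes endocan, a proteoglycan of tip cells, and had 31, 38.7, 13.5 and 56.3 CPM in VC tumours 1 to 4 and 10.8, 6.21, 9.25 and 6.26 CPM in miR-21-KD tumours 1 to 4. VC 3 was lowest in its group and VC 4 highest, and every miR-21-KD tumour was below VC 3. The gene was 4.29-fold lower (log2 fold change -2.10 ± 0.41 (SE), adjusted p = 0.00847). Apln (Entrez 30878, chrX:48025146-48034853), the gene of the peptide apelin, had 107, 155, 92.4 and 159 CPM in VC tumours 1 to 4 and 46.5, 49, 58.9 and 34.7 CPM in miR-21-KD tumours 1 to 4. No miR-21-KD value reached the lowest VC value, and Apln was 2.72-fold lower (log2 fold change -1.44 ± 0.22 (SE), adjusted p = 0.00571). Promoter sequences of RefSeq, 250 bases before to 50 after the start, were at hand for 23 members. They are printed for these 2 genes because both are among the steepest falls, with the hypoxia response core GCGTG in capitals where it occurs (ACGTG and GCGTG were searched on both strands, and matches of the 2 cores may overlap):
Apln, chrX:48034804-48035103 (- strand): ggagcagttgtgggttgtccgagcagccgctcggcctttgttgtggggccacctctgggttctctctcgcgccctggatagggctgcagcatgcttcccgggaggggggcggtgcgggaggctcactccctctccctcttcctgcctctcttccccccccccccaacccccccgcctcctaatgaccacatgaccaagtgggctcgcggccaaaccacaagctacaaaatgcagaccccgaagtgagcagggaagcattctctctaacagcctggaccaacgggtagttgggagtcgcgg
Esm1, chr13:113209409-113209708 (+ strand): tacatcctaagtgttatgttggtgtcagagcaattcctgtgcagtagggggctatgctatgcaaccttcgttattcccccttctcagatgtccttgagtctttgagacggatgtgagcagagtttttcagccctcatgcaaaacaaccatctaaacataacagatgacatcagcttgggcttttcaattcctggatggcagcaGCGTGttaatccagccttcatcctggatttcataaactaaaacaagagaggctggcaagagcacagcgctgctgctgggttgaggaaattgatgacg
The Esm1 window held 1 GCGTG and the Apln window neither core, and either core occurred in 9 of the 30 windows of members (30.0%) and in 43.8% of all 32851 windows of that length.

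Of the VEGF family, 2 ligands were lower, 1 was higher and 2 did not pass the test. Vegfa, the main ligand of KDR and the member with the highest level per exon length in VC tumours (78.3 ± 15.9 CPM per kb (VC) and 78.6 ± 21.2 CPM per kb (miR-21-KD)), had 397, 325, 377 and 244 CPM in VC tumours 1 to 4 and 239, 373, 445 and 289.5 CPM in miR-21-KD tumours 1 to 4. The ranges of the 2 groups largely coincided (log2 fold change 0.00, 95% interval -0.49 to 0.50, adjusted p = 0.989). Vegfc (Entrez 22341, chr8:54077532-54186454), the lymphatic growth factor acting on FLT4, had 35.5, 46.8, 43.1 and 34.5 CPM in VC tumours 1 to 4 and 15.5, 24.9, 24 and 20.3 CPM in miR-21-KD tumours 1 to 4. The lowest VC tumour was above the highest miR-21-KD tumour, and Vegfc was 1.89-fold lower (log2 fold change -0.92 ± 0.17 (SE), adjusted p = 0.0077). Vegfb (Entrez 22340, chr19:6982472-6987651), a ligand of FLT1, had 41.4, 39.6, 48.7 and 36.5 CPM in VC tumours 1 to 4 and 25.3, 33.3, 29.1 and 30.8 CPM in miR-21-KD tumours 1 to 4. The groups did not overlap, although the difference was small at 1.4-fold (log2 fold change -0.49 ± 0.12 (SE), adjusted p = 0.0165), and adjusted p = 0.0504 without VC 3.

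Placental growth factor, Pgf (Entrez 18654, chr12:85166637-85177785), which also binds FLT1, moved the other way, with 136, 73, 92.7 and 84 CPM in VC tumours 1 to 4 and 122, 186, 271 and 142 CPM in miR-21-KD tumours 1 to 4. VC 1 exceeded miR-21-KD 1, so the groups overlapped, and Pgf was 1.87-fold higher (log2 fold change 0.90 ± 0.28 (SE), adjusted p = 0.0327). It missed the threshold without VC 2, VC 3, VC 4 or miR-21-KD 3 (adjusted p of at most 0.0876). Vegfd, a second lymphatic ligand, had means of 10.3 ± 3.16 (VC) and 15.7 ± 6.45 CPM (miR-21-KD; SD, n = 4) and did not pass the test (log2 fold change 0.61, 95% interval -0.10 to 1.31, adjusted p = 0.146), though adjusted p = 0.0306 under the replicate block. Over the 9 ligands and secreted regulators the median log2 fold change was -0.92, while their summed level, of which Vegfa was the largest part, overlapped between groups at 770.3 to 870.0 CPM (VC) against 542 to 902 CPM (miR-21-KD).

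**Figure D2:**
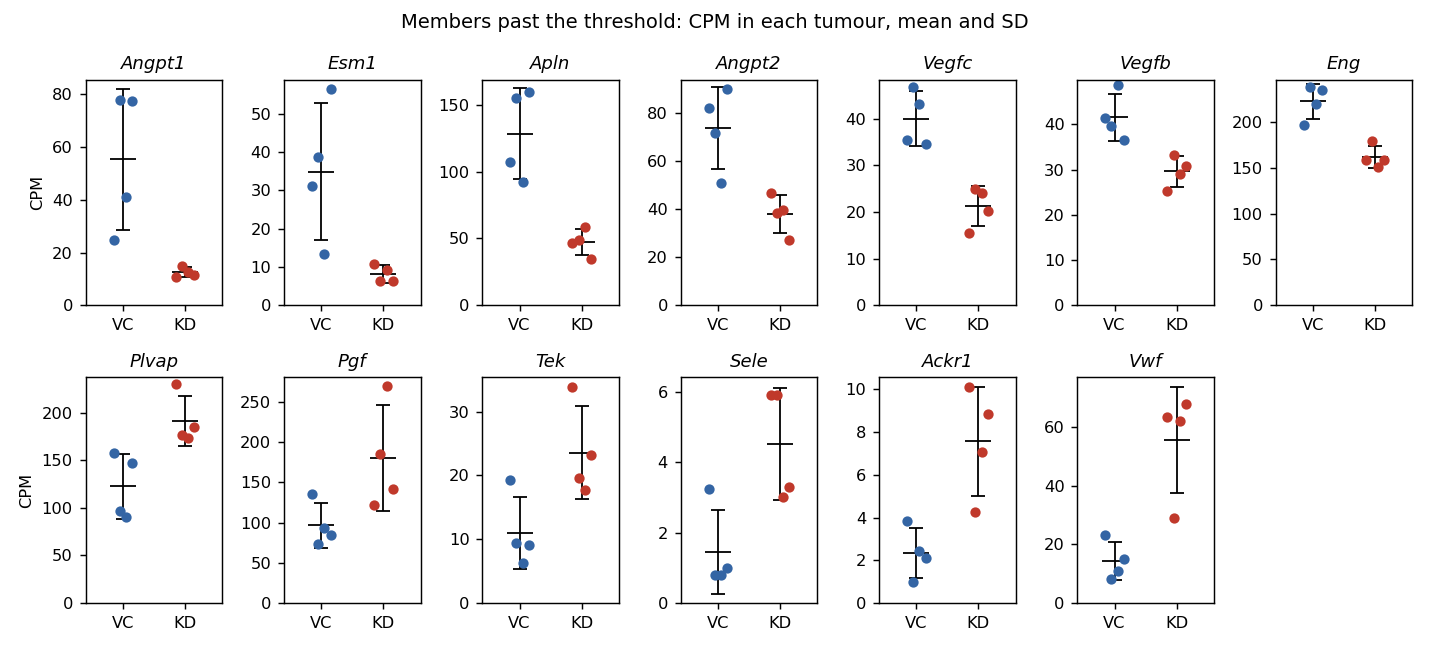
CPM (y axis, from 0) of the 13 members past the threshold in each of 4 VC (blue) and 4 miR-21-KD (KD, red) tumours, with the mean (dash) and SD (bar). The 7 lower genes in the upper row do not overlap between groups, whereas Pgf, Tek and Sele in the lower row do.

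Of the 6 receptors, 1 was higher and 0 lower with edgeR, or 16.7% called where 39.1% of all tested genes were. Both DESeq2 and an unadjusted p under 0.05 gave 2 higher, Tek and Aplnr, and 1 lower, Flt4. The median log2 fold change of the 6 was 0.21. Tek (Entrez 21687, chr4:94739086-94874976), which encodes the angiopoietin receptor TIE2, had 19.2, 9.33, 6.23 and 9.16 CPM in VC tumours 1 to 4 and 33.9, 19.6, 17.7 and 23.2 CPM in miR-21-KD tumours 1 to 4. VC 1 lay above miR-21-KD 3 and the other 3 VC tumours lay below all miR-21-KD tumours. Tek was 2.14-fold higher (log2 fold change 1.10 ± 0.35 (SE), adjusted p = 0.0378). Without any single tumour of VC 2, VC 3, VC 4, miR-21-KD 1, miR-21-KD 3 or miR-21-KD 4 it missed the threshold, with adjusted p of at most 0.0964. Tek and its agonist Angpt1 differed in opposite directions. Tie1, the orphan partner of TIE2, had means of 43.4 ± 6.57 (VC) and 51.9 ± 9.82 CPM (miR-21-KD; SD, n = 4) and did not pass the test (log2 fold change 0.26, 95% interval -0.11 to 0.63, adjusted p = 0.222), with adjusted p = 0.0493 under the replicate block.

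Flt1, a high-affinity VEGF receptor that also exists as a soluble decoy, had the highest CPM of the receptors, with 115, 104, 86.5 and 75.9 CPM in VC tumours 1 to 4 and 125, 95.9, 118 and 87.4 CPM in miR-21-KD tumours 1 to 4. The groups overlapped (log2 fold change 0.16, 95% interval -0.21 to 0.53, adjusted p = 0.452). Kdr, the main signalling receptor for VEGFA, had means of 45.8 ± 11.1 (VC) and 45.6 ± 12.5 CPM (miR-21-KD; SD, n = 4), and its interval allowed changes of either sign (log2 fold change -0.01, 95% interval -0.53 to 0.52, adjusted p = 0.983). Flt4, the receptor of VEGFC and VEGFD, had means of 15.3 ± 3.09 (VC) and 10.4 ± 2.22 CPM (miR-21-KD; SD, n = 4) and missed the threshold (log2 fold change -0.56, 95% interval -1.02 to -0.09, adjusted p = 0.057). Aplnr, the apelin receptor, had 48.9, 19.3, 19.3 and 16.3 CPM in VC tumours 1 to 4 and 50.4, 49.4, 39.6 and 44.8 CPM in miR-21-KD tumours 1 to 4. The other 3 VC tumours were below all miR-21-KD tumours, but VC 1 was near the miR-21-KD level, and the gene missed the threshold (log2 fold change 0.83, 95% interval 0.07 to 1.58, adjusted p = 0.0764), with adjusted p = 0.0244 under the replicate block. Without VC 1 it passed, at a log2 fold change of 1.33.

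Ratios between a ligand and its receptor, or between 2 markers, were taken within each tumour as log2 ratios of counts with no correction for gene length, so only their differences between groups are read. The Apln to Aplnr ratio was 1.13, 3.01, 2.26 and 3.29 in VC tumours 1 to 4 and -0.12, -0.01, 0.57 and -0.37 in miR-21-KD tumours 1 to 4. It was lower in every miR-21-KD tumour than in any VC tumour, 5.29-fold on average (exact permutation p = 0.0286, Benjamini-Hochberg adjusted p = 0.1000). The smallest p that 4 against 4 tumours allow is 0.0286, and with 7 ratios none passed the adjusted threshold. If equal replicate numbers mark pairs, the exact test of 4 sign flips cannot go below 0.125, which is the p of this ratio, of the next and of Angpt2 to Angpt1. Plvap to Cldn5, a marker of leaky fenestrated vessels over a marker of tight vessels, was 3.94, 2.46, 3.24 and 2.94 in VC tumours 1 to 4 and 4.42, 5.37, 4.25 and 4.08 in miR-21-KD tumours 1 to 4. These values did not overlap either, and the ratio was 2.61-fold higher in miR-21-KD tumours (exact permutation p = 0.0286, Benjamini-Hochberg adjusted p = 0.1000).

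Groups overlapped for the other 5 ratios. Angpt2 to Angpt1, a ratio of TIE2 antagonist to agonist, differed by 1.05 on the log2 scale (exact permutation p = 0.114, Benjamini-Hochberg adjusted p = 0.20), and VC 1 stood within the miR-21-KD range, though each miR-21-KD tumour exceeded the VC tumour of its number. Pgf to Flt1 differed by 0.71 (exact permutation p = 0.114, Benjamini-Hochberg adjusted p = 0.20) and Vcam1 to Pecam1 by -0.64 (exact permutation p = 0.143, Benjamini-Hochberg adjusted p = 0.20). Vegfa to Kdr had the same mean in both groups (2.88 and 2.88, exact permutation p = 1.0, Benjamini-Hochberg adjusted p = 1.0). Lyve1 to Prox1, both lymphatic, rested on 1 to 6 counts of Prox1 per tumour and differed by -0.78 (exact permutation p = 0.40, Benjamini-Hochberg adjusted p = 0.467).

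**Figure D3:**
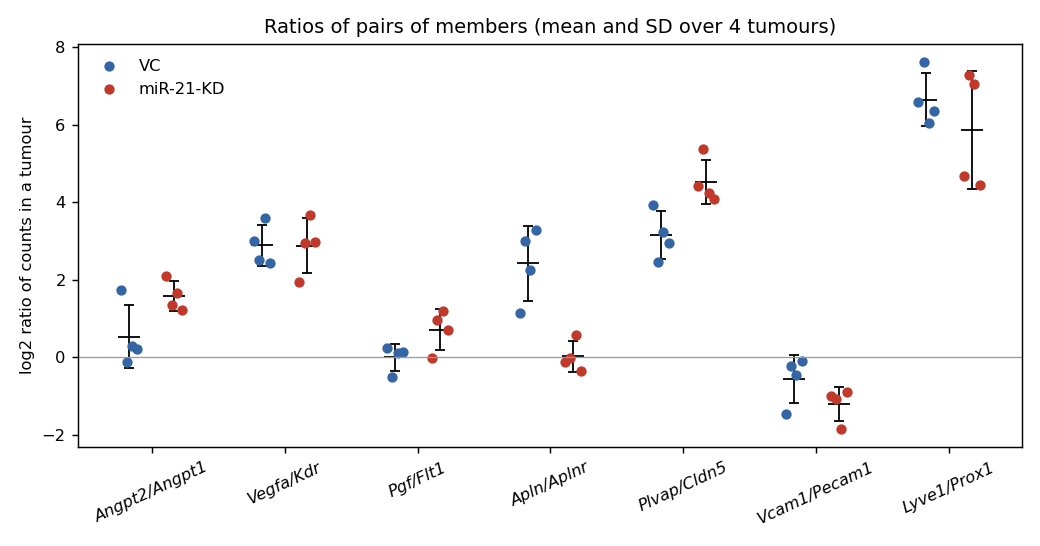
Log2 ratio of counts of 7 pairs of members (y axis) in each of 4 VC (blue) and 4 miR-21-KD (red) tumours, with the mean (dash) and SD (bar). Apln/Aplnr and Plvap/Cldn5 are the pairs whose groups do not overlap.

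The endothelial identity genes gave no common direction. Of 16, 2 were higher, 1 was lower and 13 did not pass the test. The share called was 18.8%, compared with 39.1% of all tested genes, and the median log2 fold change of the 16 was -0.01. Pecam1, the junctional adhesion molecule CD31, was the most counted of them, with 384, 281, 217 and 307 CPM in VC tumours 1 to 4 and 461, 335, 393 and 352 CPM in miR-21-KD tumours 1 to 4. The miR-21-KD range began inside the VC range (log2 fold change 0.37, 95% interval -0.03 to 0.78, adjusted p = 0.124), and without VC 1 the gene passed (log2 fold change 0.52, adjusted p = 0.0392). The VE-cadherin gene Cdh5 had means of 92.8 ± 24.1 (VC) and 91.7 ± 26.7 CPM (miR-21-KD; SD, n = 4), with an interval on both sides of 0 (log2 fold change -0.02, 95% interval -0.57 to 0.53, adjusted p = 0.958). VC 3 was the lowest VC tumour for 13 of the 16 identity genes and for 25 of the 39 tested members, compared with 18.3% of all tested genes.

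Vwf (Entrez 22371, chr6:125552948-125686679), the gene of von Willebrand factor, which endothelial cells store for haemostasis, had the largest rise of the members. It had 23.3, 8.22, 10.8 and 14.9 CPM in VC tumours 1 to 4 and 63.5, 28.9, 62.2 and 67.9 CPM in miR-21-KD tumours 1 to 4. Every miR-21-KD tumour exceeded every VC tumour, and miR-21-KD 2 lay apart from the other 3 of its group. Vwf was 3.88-fold higher (log2 fold change 1.96 ± 0.37 (SE), adjusted p = 0.00785). Plvap (Entrez 84094, chr8:71497753-71511806), which forms the diaphragms of fenestrated endothelium, had 157, 96.5, 90.6 and 147 CPM in VC tumours 1 to 4 and 230.4, 177, 174 and 185 CPM in miR-21-KD tumours 1 to 4. The groups did not overlap and Plvap was 1.56-fold higher (log2 fold change 0.64 ± 0.20 (SE), adjusted p = 0.0335), but missed the threshold without VC 2, VC 3, miR-21-KD 1, miR-21-KD 3 or miR-21-KD 4 (adjusted p of at most 0.0879). Eng (Entrez 13805, chr2:32646595-32682669), which encodes endoglin, a co-receptor for TGF-beta and BMP9, had 197, 238, 219.6 and 235 CPM in VC tumours 1 to 4 and 159, 179, 150.4 and 158 CPM in miR-21-KD tumours 1 to 4. The highest miR-21-KD value was below the lowest VC value, and Eng was 1.38-fold lower (log2 fold change -0.46 ± 0.09 (SE), adjusted p = 0.00931).

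The other identity genes did not pass the test. Mmrn2, an extracellular matrix protein of endothelium, was higher in all 4 miR-21-KD tumours than in any VC tumour (log2 fold change 0.54, 95% interval 0.09 to 1.00, adjusted p = 0.0596), with adjusted p = 0.0249 under the replicate block. Cd34, a sialomucin of capillaries and progenitors, had means of 109.7 ± 25 (VC) and 159.6 ± 49 CPM (miR-21-KD; SD, n = 4) (log2 fold change 0.54, 95% interval -0.02 to 1.10, adjusted p = 0.109). The sialomucin Emcn had means of 50.5 ± 9.55 (VC) and 39.5 ± 6.12 CPM (miR-21-KD; SD, n = 4) (log2 fold change -0.35, 95% interval -0.72 to 0.01, adjusted p = 0.108), with adjusted p = 0.0256 under the replicate block. Claudin-5, the tight junction protein encoded by Cldn5, had means of 14.1 ± 4.94 (VC) and 8.74 ± 3.11 CPM (miR-21-KD; SD, n = 4), and its wide interval reached 0 (log2 fold change -0.69, 95% interval -1.47 to 0.09, adjusted p = 0.135). Icam2, a ligand of leukocyte integrins, had a log2 fold change of -0.30 (adjusted p = 0.30). The remaining 6, namely Esam (0.16), Ecscr (-0.05), Robo4 (-0.12), Egfl7 (-0.10), Ramp2 (0.20) and Nos3 (0.00), had small log2 fold changes. Their 95% intervals allowed changes of either sign, the widest being those of Ramp2 (-0.42 to 0.82) and Robo4 (-0.67 to 0.44). Ramp2, the partner of the adrenomedullin receptor, shares 1103 exonic bases with Vps25, and Nos3, the endothelial nitric oxide synthase, shares 1334 with genes on the other strand, so their counts are uncertain. Egfl7, a secreted endothelial factor whose gene hosts miR-126, shares 459 with Agpat2 and other genes.

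**Figure D4:**
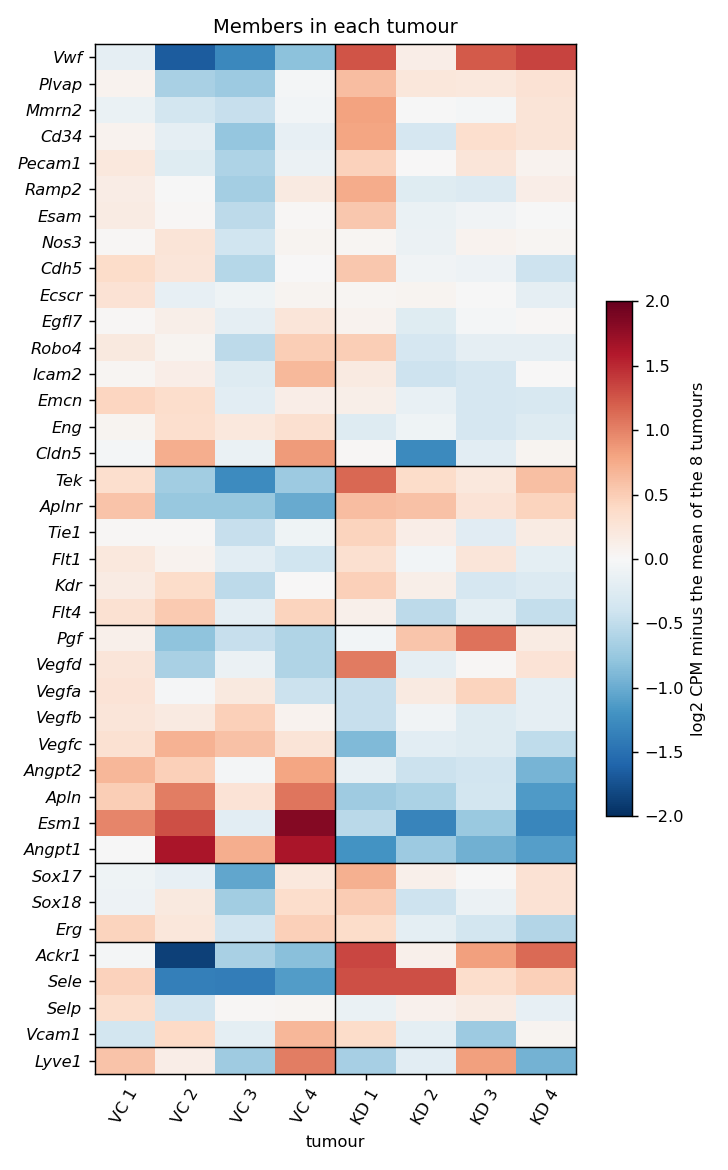
Log2 CPM of each tested member (rows, by role) in each tumour (columns), shown as the difference from the mean of the 8 tumours, red above and blue below. The ligands Angpt1, Esm1 and Apln are blue in all 4 miR-21-KD (KD) tumours, and VC 3 is the lowest VC tumour for 13 of the 16 identity genes.

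The 4 leukocyte-binding genes of venules included 2 that were higher and 2 that did not pass the test (50% called, against 39.1% of all tested genes). Ackr1 (Entrez 13349, chr1:173331886-173333503), the atypical chemokine receptor of venular endothelium, had 3.83, 0.957, 2.44 and 2.13 CPM in VC tumours 1 to 4 and 10.1, 4.24, 7.06 and 8.84 CPM in miR-21-KD tumours 1 to 4. The groups did not overlap, and Ackr1 was 3.21-fold higher (log2 fold change 1.68 ± 0.42 (SE), adjusted p = 0.0163), although 361 of its exonic bases overlap Cadm3. Sele (Entrez 20339, chr1:164039614-164058487), the gene of E-selectin, which cytokines induce, had 3.24, 0.798, 0.788 and 0.981 CPM in VC tumours 1 to 4 and 5.9, 5.9, 3.0 and 3.29 CPM in miR-21-KD tumours 1 to 4. VC 1 was above miR-21-KD 3, and the other 3 VC tumours were below 1 CPM. Sele was 3.08-fold higher (log2 fold change 1.62 ± 0.51 (SE), adjusted p = 0.035), and missed the threshold without VC 2, VC 3, VC 4, miR-21-KD 1, miR-21-KD 2 or miR-21-KD 4 (adjusted p of at most 0.0933). Without VC 1 the log2 fold change was 2.39 (adjusted p = 0.00613).

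Vcam1, the ligand of leukocyte integrin VLA-4, had 140.0, 238, 158 and 287 CPM in VC tumours 1 to 4 and 232, 158, 109 and 188 CPM in miR-21-KD tumours 1 to 4. Its groups overlapped widely (log2 fold change -0.26, 95% interval -0.90 to 0.38, adjusted p = 0.486). Selp, which encodes P-selectin, had means of 35 ± 7.13 (VC) and 34.2 ± 3.86 CPM (miR-21-KD; SD, n = 4) (log2 fold change -0.03, 95% interval -0.39 to 0.32, adjusted p = 0.88). Selp is also made by platelets, and 624 of its exonic bases overlap non-coding genes. Of the 3 transcription factors tested, 0 passed with edgeR, also at an unadjusted p under 0.05, and 0 with DESeq2. Sox18 had 14.9, 18.3, 9.85 and 20.5 CPM in VC tumours 1 to 4 and 22.8, 11.9, 14.9 and 19.6 CPM in miR-21-KD tumours 1 to 4, which overlapped (log2 fold change 0.12, 95% interval -0.49 to 0.73, adjusted p = 0.737). Sox17, an arterial factor, had means of 4.36 ± 1.47 (VC) and 6.24 ± 1.47 CPM (miR-21-KD; SD, n = 4) (log2 fold change 0.52, 95% interval -0.15 to 1.18, adjusted p = 0.182), and 804 of its exonic bases overlap Gm37587. Erg, an ETS factor that maintains endothelial identity, had means of 12.7 ± 3.16 (VC) and 9.76 ± 3.01 CPM (miR-21-KD; SD, n = 4) (log2 fold change -0.38, 95% interval -0.98 to 0.21, adjusted p = 0.259). Lyve1, the hyaluronan receptor of lymphatic vessels and some macrophages, had 31.7, 23.4, 12.9 and 43.3 CPM in VC tumours 1 to 4 and 13.4, 18.4, 37.9 and 11 CPM in miR-21-KD tumours 1 to 4. The ranges coincided (log2 fold change -0.46, 95% interval -1.50 to 0.57, adjusted p = 0.438).

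Other genes of endothelium and of these pathways were counted in the same fit. Of 39 further endothelial genes tested, 9 were higher and 5 lower, or 35.9% called where 39.1% of all tested genes were. The median log2 fold change of the list was 0.31. The 3 with the smallest adjusted p were Tm4sf1 (-1.43 ± 0.22, adjusted p = 0.00571), a tetraspanin-like protein of endothelium and carcinoma cells, Stab1 (1.16 ± 0.21, adjusted p = 0.00701), a scavenger receptor that macrophages also express, and Acvrl1 (1.18 ± 0.23, adjusted p = 0.0085), the receptor of BMP9 that works with endoglin. The summed level of the list overlapped between groups (1859 to 2434 CPM (VC) against 2027 to 2719 CPM (miR-21-KD)). Of 46 angiogenesis partners and regulators tested, 18 were higher and 8 lower (56.5% called), with a median of 0.35. The leading genes were Ackr3 (0.86 ± 0.15, adjusted p = 0.0070), a scavenger receptor for CXCL12, Angptl2 (-1.16 ± 0.21, adjusted p = 0.00735), an angiopoietin-like secreted protein, and Jag1 (0.83 ± 0.15, adjusted p = 0.00758), a Notch ligand.

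A list of 20 hypoxia response genes was counted apart from the members, although Vegfa is itself induced by hypoxia. Of the 20, 2 were higher and 0 lower, or 10% called where 39.1% of all tested genes were. The 2 were Pfkfb4 (0.77 ± 0.12, adjusted p = 0.00571) and Pfkfb3 (0.78 ± 0.16, adjusted p = 0.00906), regulators of glycolysis, and next came Mxi1 (0.55 ± 0.20, adjusted p = 0.0526). Adm (0.94 ± 0.27, adjusted p = 0.0264) and Angptl4 (0.78 ± 0.26, adjusted p = 0.0433), also induced by hypoxia but counted with the angiogenesis partners, were higher too (both named after their values were seen). At an unadjusted p under 0.05 edgeR gave 6 higher and 1 lower, and DESeq2 gave 0 lower at the adjusted threshold. With DESeq2, and likewise without VC 1, 5 of these genes were higher, and 4 without miR-21-KD 1. The summed level overlapped (8385 to 12049.6 CPM (VC) against 7022 to 12476 CPM (miR-21-KD)), and so did the level of Vegfa. Mural cells, which coat vessels, gave 10 higher and 1 lower gene of 16 (68.8% called), led by Cspg4 (1.41 ± 0.27, adjusted p = 0.0082), Acta2 (0.63 ± 0.12, adjusted p = 0.00849) and Ndufa4l2 (1.13 ± 0.23, adjusted p = 0.00922). Pdgfrb, the receptor by which these cells are recruited, had means of 83.9 ± 12.3 (VC) and 133 ± 54.7 CPM (miR-21-KD; SD, n = 4) and missed the threshold (adjusted p = 0.0635). The lower gene was Mcam (-0.64 ± 0.18, adjusted p = 0.0235). Notch3 (0.38), Abcc9 (0.01), Higd1b (-0.73) and Kcnj8 (-0.84, adjusted p = 0.0673) did not pass the test either. The summed level of the mural list did not overlap (505 to 713 CPM (VC) against 726 to 1135 CPM (miR-21-KD)).

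Markers of other cells differed between the groups as well. Of 12 leukocyte genes 8 were higher, or 66.7% called where 39.1% of all tested genes were. The sum of the 12 was 3064 to 4739.9 CPM (VC) against 5887 to 9841 CPM (miR-21-KD). Mrc1 (1.24 ± 0.25, adjusted p = 0.00928), Itgam (0.98 ± 0.20, adjusted p = 0.0101) and Cd68 (0.91 ± 0.20, adjusted p = 0.0114) led. Ptprc, the pan-leukocyte marker, had means of 189 ± 68.2 (VC) and 375 ± 75.6 CPM (miR-21-KD; SD, n = 4). Of 8 fibroblast genes 7 were higher (87.5% called), led by Col1a1, Col1a2 and Dcn, with a sum of 3389.8 to 8774 CPM (VC) against 10911 to 24542 CPM (miR-21-KD). Adipocyte genes were higher in 8 of 8 cases, led by Plin4, Lep and Plin1. Their sum was 56.8 to 285 CPM (VC) against 441 to 1354 CPM (miR-21-KD), and Adipoq, the defining marker, had means of 14.2 ± 9.77 (VC) and 78.6 ± 44.9 CPM (miR-21-KD; SD, n = 4). Of 5 platelet genes tested of 11, Pf4 (also made by macrophages, means of 110.2 ± 12.5 (VC) and 341 ± 125 CPM (miR-21-KD; SD, n = 4)) and Itgb3 were higher (40% called). Itga2b (0.47, adjusted p = 0.0601), Ppbp (0.25, adjusted p = 0.579) and Gp1ba (-0.06, adjusted p = 0.905) did not pass the test, and Gp9, Gp5 and Gp6 were too low to test. The platelet sum, most of it Pf4 and Itgb3, was 206 to 274 CPM (VC) against 350.1 to 691 CPM (miR-21-KD).

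VC 1 had the highest sum of the VC tumours for the fibroblast and adipocyte lists and was the highest VC tumour for all 6 members that were higher in miR-21-KD tumours, compared with 53.7% of the 2826 genes called higher. The lowest sums of the miR-21-KD group for the leukocyte, fibroblast and adipocyte lists were in miR-21-KD 2, which was the lowest miR-21-KD tumour for 2 of these 6 members (33.3%), Vwf and Ackr1, compared with 71.8% of the genes called higher. The part of these cell type lists in the differences of the members was not tested. Among the 13 members past the threshold, 8 kept their call and direction in all 15 alternative fits, namely Vwf, Ackr1, Angpt1, Esm1, Apln, Angpt2, Vegfc and Eng. The count of higher members was 2 without VC 2 or without VC 3, 3 without VC 4, miR-21-KD 1, miR-21-KD 3 or miR-21-KD 4, 7 without miR-21-KD 2 and 8 without VC 1. The count of lower members stayed at 7 or 8 in each of these fits.

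**Figure D5:**
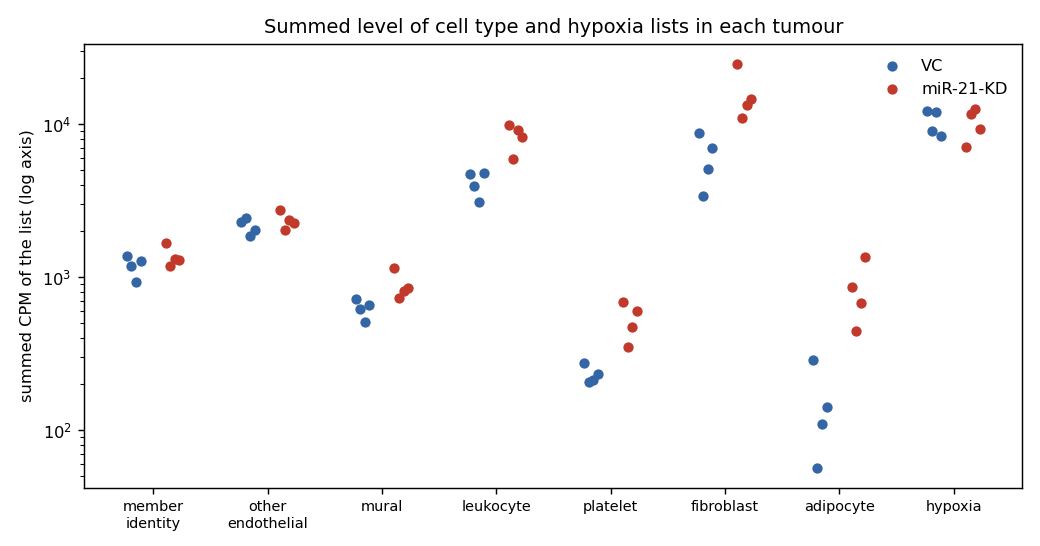
Summed CPM of the 16 identity members and of 7 lists of other genes (y axis, log scale) in each of 4 VC (blue) and 4 miR-21-KD (red) tumours. The member identity, other endothelial and hypoxia sums overlap between groups, whereas the mural, leukocyte, platelet, fibroblast and adipocyte sums do not.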

How the data were processed

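Whole tumours were sequenced (4 VC, 4 miR-21-KD). The table that the authors deposited holds raw read counts for genes given by Entrez identifier, 1 column per tumour, not normalized. The submitters' processing notes name Subread, featureCounts, edgeR, limma and mm10. Versions and the strand setting are not given in the sources used here. Symbols came from RefSeq (GRCm38.p6), matched for 25275 of 27179 identifiers and all 40 members.

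Analysis used R 4.3.3 and edgeR 4.0.16. Genes kept by filterByExpr (minimum count 10, minimum total 15) numbered 14382. After TMM scaling, the robust quasi-likelihood test compared the groups without a block, with Benjamini-Hochberg adjustment over all tested genes and a threshold of 0.05. Log2 CPM used a prior count of 2 and log2 ratios a prior count of 0.5. The 7 ratios were tested by exact permutation, two-sided, with adjustment over the 7. CPM per kb used the union of GENCODE vM21 exons. The fit was also run on simulated counts with a small set of changed genes and independent tumours. That setting is unlike these data, so it is no check of the calls made here. Chi-square per degree of freedom between tumours of a group was 12.6 to 70.7, so none was a repeat of another library.

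The members and lists were chosen with earlier results of these data known. Values in each tumour were given for members past the threshold and for the most counted member of each role, and also for Aplnr. Of each list of other genes the 3 with the smallest adjusted p were named.

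Alternatives were DESeq2 1.42.0, upper-quartile scaling or library size alone, a fit without the low-count filter or with a minimum of 10 counts in each tumour, limma-voom (limma 3.58.1), a block for the replicate number, a prior count of 2 for ratios, and each tumour left out in turn. The labels number tumours 1 to 4 in both groups and state no pairing. After removal of group means, tumours of the same number correlated at 0.18 to 0.42, each over 0.1 (mean 0.311). Other combinations correlated at -0.39 to 0.39 (mean -0.105). The mean was higher for equal numbers while the ranges overlapped, so these values do not settle whether the numbering marks pairs. Values are reported without the block, and blocked values are added where they change the call of a member. Blocked counts are also given over all genes, but not for the lists of other genes, whose calls may change under the block.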

Additional observations from a re-analysis of the deposited data

Results flagged for a closer look

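In 3 of 78 groups of 4 tumours (39 members in 2 groups), 1 tumour stood apart by Dixon's test at the 95% level, which chance gives in about 1 in 20 groups. Vwf in miR-21-KD 2 had a log2 CPM of 4.86, against 5.96 to 6.09 in the other 3 tumours of that group. Aplnr in VC 1 had 5.62, against 4.04 to 4.28, and without VC 1 the gene passed the threshold. Sele in VC 1 had 1.77, against -0.08 to 0.19, and without VC 1 its log2 fold change was 2.39 against 1.62, past the threshold in both fits.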

How the results depend on the processing

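For single members, 502 values under alternatives kept their direction and side of the threshold and 42 changed sign, and the cause of the others was not tested. The replicate block gave 10 higher members against 6, adding Mmrn2, Tie1, Aplnr and Vegfd, and 8 lower against 7, adding Emcn, and changed no other call of a member, while over all genes it gave 3309 higher and 3176 lower against 2826 and 2800. DESeq2 gave 14 higher other endothelial genes against 9, 2 lower mural genes against 1, and 5 higher hypoxia genes against 2. With single tumours left out, counts ranged from 2 to 8 for higher members, 5 to 11 (higher; 5 without VC 3) and 2 to 6 (lower; 2 without VC 2) for other endothelial genes, 11 to 19 for higher angiogenesis partners (11 without VC 3 or miR-21-KD 3), 0 to 1 for lower mural genes, and 2 to 5 (higher) and 0 to 1 (lower) for hypoxia genes. Over all genes the higher count then ranged from 1449 to 3290.

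Pgf missed the threshold without the filter on low counts. Plvap, Tek, Sele and Pgf each missed it without 4 to 6 single tumours, with adjusted p of at most 0.0964, and Vegfb without VC 3. Beyond the block, Emcn passed without VC 3, Flt4 with DESeq2, with library size alone and without VC 3 or miR-21-KD 1, Mmrn2 with DESeq2, with the stricter filter and without miR-21-KD 2, Cd34 without miR-21-KD 2, Pecam1 without VC 1, and Aplnr with DESeq2, with limma-voom and without VC 1. Sign changed only in members that did not pass the test. For Cdh5 the log2 fold change was 0.0011 with DESeq2, 0.0252 with upper-quartile scaling, 0.0342 with the stricter filter and -0.233 to 0.104 with tumours left out. For Kdr the same fits gave 0.0119, 0.0371, 0.0454 and -0.193 to 0.113. Vegfa had -0.0212 by library size alone, -0.0242 without the filter, -0.00902 with limma-voom, -0.00783 with the block and -0.161 to 0.138 with tumours left out. Nos3 had -0.0224 by library size alone, -0.0281 without the filter and -0.115 to 0.0945 with tumours left out. Selp had 0.00693 with upper-quartile scaling, 0.0156 with the stricter filter and -0.155 to 0.0939 with tumours left out, and Ecscr had 0.00129 with the stricter filter and -0.115 to 0.0475 with tumours left out. Leaving out tumours gave -0.0171 to 0.237 for Esam, -0.335 to 0.0316 for Robo4, -0.0690 to 0.319 for Ramp2 and -0.0571 to 0.262 for Sox18. Scalings moved the median of all genes by less than 0.1 (log2). Depth limits Prox1, Sele and Ackr1, whose counts were low.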

Other observations

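Carcinoma epithelial genes changed in both directions. Of 8, 6 were higher and 1 lower, or 87.5% called where 39.1% of all tested genes were. They were led by Krt19 (3.60 ± 0.63, adjusted p = 0.00688), Krt14 (3.08 ± 0.66, adjusted p = 0.011) and Epcam (1.93 ± 0.50, adjusted p = 0.0182), while Krt18 was lower (log2 fold change -1.15). Their summed level overlapped between groups (1293 to 2227 CPM (VC) against 1048 to 1964 CPM (miR-21-KD)). Of the skeletal muscle genes, 2 of 6 were tested and Atp2a1 (1.23 ± 0.35, adjusted p = 0.0259) was higher, whereas Mylpf was not past the threshold and Acta1 was too low to test. Of 3 red cell genes tested, 0 passed edgeR's test, also at an unadjusted p under 0.05, and 0 passed with DESeq2 (Alas2, Hba-a2 and Hbb-bs, with log2 fold changes of 0.53, 0.54 and 0.23).

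Per exon length, the members with the highest levels in VC tumours were, in order, Vegfa (78.3 ± 15.9 CPM per kb (VC) and 78.6 ± 21.2 CPM per kb (miR-21-KD)), Plvap (61.9 ± 17.2 CPM per kb (VC) and 96.3 ± 13.3 CPM per kb (miR-21-KD)), Eng (55 ± 4.66 CPM per kb (VC) and 39.9 ± 2.98 CPM per kb (miR-21-KD)), Pecam1 (47.8 ± 11.1 CPM per kb (VC) and 61.9 ± 9.0 CPM per kb (miR-21-KD)), Apln (40.8 ± 10.8 CPM per kb (VC) and 15 ± 3.17 CPM per kb (miR-21-KD)) and Pgf (33.2 ± 9.52 CPM per kb (VC) and 62.1 ± 22.7 CPM per kb (miR-21-KD)). Neighbours in this order differed by less than the larger SD of the pair. Apln stood above Pgf in VC tumours and below it in miR-21-KD tumours. Vwf, despite the largest rise of the members, stayed low per length (0.89 ± 0.411 CPM per kb (VC) and 3.46 ± 1.12 CPM per kb (miR-21-KD)).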
